A study of Mus musculus with 6 samples.

Results

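The BPI fold genes described here are 8 genes of a cluster on mouse chromosome 2 that encode secreted proteins of the nasal lining, namely Bpifa1, Bpifb1, Bpifb3, Bpifb4, Bpifb5, Bpifb6, Bpifb9a and Bpifb9b. They were taken by symbol from a table of 40273 genes, and all 8 passed the filter on low values. The table comes from RNA-seq of the olfactory mucosa, the part of the nasal lining where odours are sensed, which is made of sensory neurons, supporting cells and glands and borders on respiratory epithelium. The libraries came from 3 wild-type control mice and 3 mice with a deletion of the element named eC, a 1005 bp stretch of chromosome 7 that the series text calls an enhancer. All 6 were males of the mixed strain 129S6;C57BL/6J on postnatal day 30. The design text counts them as separate animals, and whether the deletion was on one or both copies of the chromosome is not given in the labels.

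BPI fold proteins are relatives of the bactericidal/permeability-increasing protein of neutrophils and of the lipopolysaccharide-binding protein of blood, and they share a boat-shaped fold with pockets for lipids. The short members (named Bpifa) have a single such domain and the long members (named Bpifb) have a tandem pair. They are known as abundant products of the nose, mouth and upper airway, where some bind bacterial lipids or alter the surface tension of mucus, and rat relatives of the long members were first isolated from olfactory mucosa and proposed to carry odorants.

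The libraries held between 30342763 and 50906277 reads assigned to genes. They parted into sets by how many genes were detected, for which the labels give no reason: control 1, deletion 1 and deletion 2 had reads for 26564 to 27879 genes (set A), and control 2, control 3 and deletion 3 for 36197 to 37456 (set B). These sets also lay apart on the first principal component, which held 66.1% of the variance. Olfr571, the receptor gene that the deleted stretch overlaps, had 45.1, 44.8 and 39.5 normalized counts in control mice and no read in any deletion library, which checks the group labels. The defining markers of olfactory sensory neurons were all present, with Omp at 125370 to 181804 normalized counts, and so were those of sustentacular cells and of Bowman's gland.

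Together the BPI fold genes took 1.65%, 1.39% and 1.71% of all assigned reads in controls 1, 2 and 3, and 1.70%, 1.57% and 1.45% in deletion libraries 1, 2 and 3. The groups overlapped, with means of 1.59% ± 0.170 in control mice and 1.58% ± 0.122 in the deletion group (SD, n = 3 each). The 95% Wilson interval of a share was at most 0.00456 percentage points wide on each side, so the differences between libraries were larger than counting error, which is all that such an interval covers. Bpifa1 made up 38.1% to 55.6% of the reads of the 8 genes in a library. It accounted for 0.705% ± 0.172 of the assigned reads in control mice and 0.808% ± 0.135 in the deletion group. Bpifb5, Bpifb9a and Bpifb9b together made up 0.0237%, 0.132% and 0.281% in control mice and 0.0289%, 0.0546% and 0.0562% in the deletion libraries. Control 3 was the library with the largest share of these 3 genes and control 1 the one with the smallest, so the range of the controls enclosed all deletion libraries. In bulk tissue, a lower value from fewer cells of a type and one from less RNA per cell cannot be told apart.

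**Figure D1:**
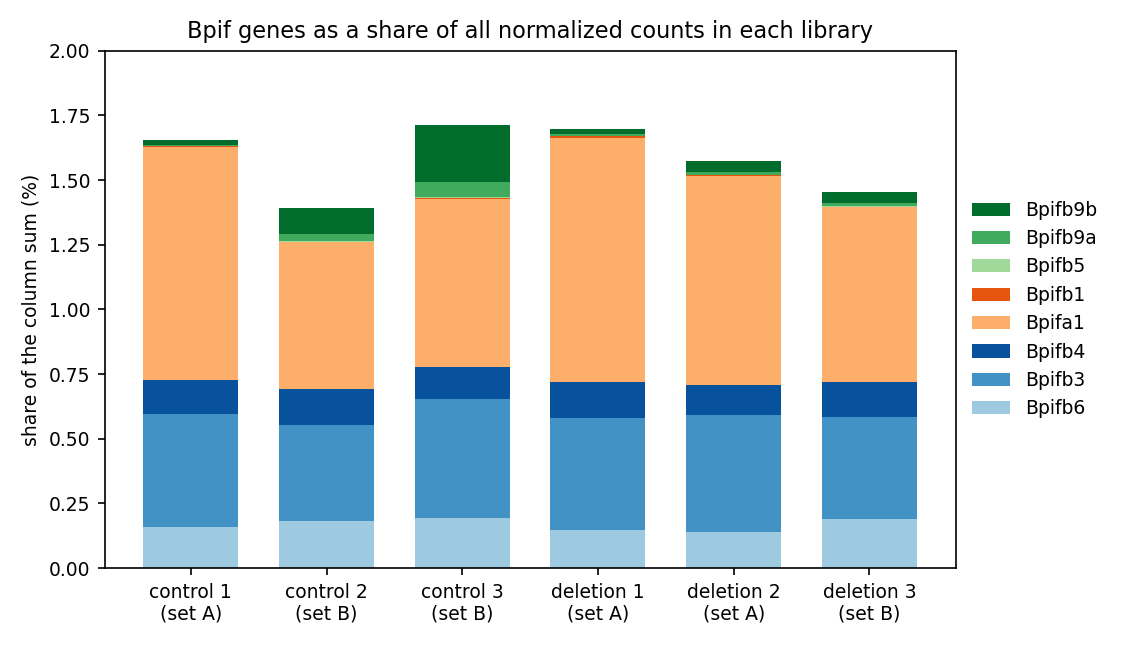
Stacked bars give the percentage of all assigned reads that each BPI fold gene took in each of the 6 libraries. The totals run from 1.39% to 1.71%, and Bpifa1 and Bpifb3 fill most of every bar.

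Per kilobase of transcript, Bpifa1 was the most abundant of the 8 genes and Bpifb5 the least. Bpifa1 encodes SPLUNC1, a short secreted protein of airway lining fluid that is known to regulate the epithelial sodium channel. Its level of 252481 normalized counts per kb, averaged over the 6 libraries, was the 4th highest of the 20262 tested genes with an annotated length. Bpifb3, whose rat counterpart RYA3 is one of the olfactory mucosa proteins mentioned above, was 19th at 85843 per kb. Bpifb6 was 43rd at 37153 per kb and Bpifb4 71st at 19998 per kb. In cultured human cells, BPIFB3 and BPIFB6 have been described as proteins of the endoplasmic reticulum that act on membrane traffic. Bpifb9b and Bpifb9a, mouse relatives of rat vomeromodulin, a secreted glycoprotein of nasal glands, were at 13106 and 3617 per kb. Bpifb1, which encodes LPLUNC1, a mucus component of the nose and large airways, was at 840 per kb, and Bpifb5 at 239 per kb.

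That order had little overlap at its upper end. Bpifa1 was above Bpifb3, Bpifb3 above Bpifb6 and Bpifb6 above Bpifb4 in all 6 libraries, by level per kb. Bpifb9b was above Bpifb9a in all 6 libraries as well. Bpifb4 was above Bpifb9b in 5 of 6 libraries, with control 3 as the exception. Bpifb9a was above Bpifb1 in 5 of 6 libraries, deletion 1 being the exception, and Bpifb1 was above Bpifb5 in 5 of 6, control 3 being the exception. The neighbours Bpifb4 and Bpifb9b, Bpifb9a and Bpifb1, and Bpifb1 and Bpifb5 therefore did not differ beyond the spread between libraries.

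The 8 genes lie on the plus strand of chromosome 2 within 420.259 kb (GRCm38, GENCODE vM21), and no other annotated gene overlaps any of them. Bpifb6 (153900388 to 153912795), Bpifb3 (153918230 to 153932996) and Bpifb4 (153938212 to 153964101) come first, spaced by 5.434 and 5.215 kb. After a gap of 178.778 kb follow Bpifa1 (154142880 to 154149219) and Bpifb1 (154190818 to 154220369). Bpifb5 (154223742 to 154240902) starts 3.372 kb past Bpifb1, and Bpifb9a (154257854 to 154271245) and Bpifb9b (154307227 to 154320646) close the row. The variation between libraries followed this order in 3 blocks: the first 3 genes varied least, Bpifa1 and Bpifb1 more, and the last 3 most.

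**Figure D2:**
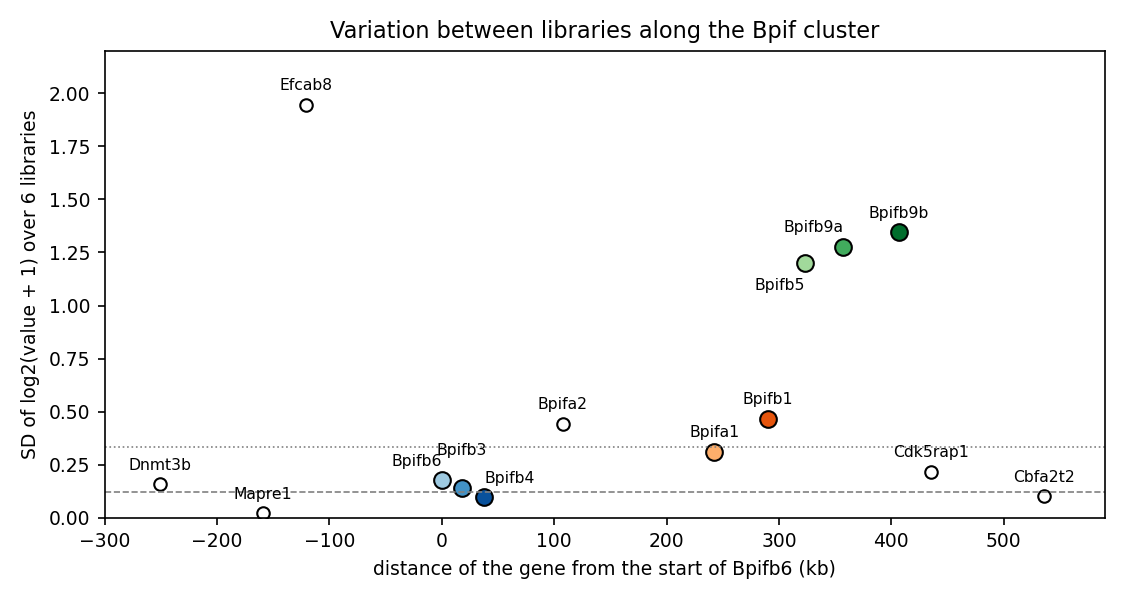
Each point is a tested gene named in the text, placed by its distance from the start of Bpifb6 (kb) and by the SD of log2(value + 1) over the 6 libraries. Filled points are BPI fold genes described here and open points are neighbours; the dashed line is the median SD (0.12) and the dotted line the 95th percentile (0.34) of the 14018 genes with a mean of at least 100. Bpifb5, Bpifb9a and Bpifb9b lie at 1.20 to 1.34, and the next tested gene past them, Cdk5rap1, lies at 0.22.

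Bpifb5, Bpifb9a and Bpifb9b varied together across the 6 mice, over a range of about an order of magnitude. Bpifb9b had 6757, 36544 and 79599 normalized counts in controls 1, 2 and 3 and 8079, 15606 and 15962 in deletion libraries 1, 2 and 3. Bpifb9a had 2028, 10227 and 20998 in control mice and 2403, 4755 and 4407 in the deletion libraries. Bpifb5 had 115, 533 and 1070 in the controls, from 156, 464 and 920 reads, and 146, 252 and 228 in the deletion libraries, from 195, 228 and 189 reads. For each of the 3 genes, control 3 was highest, control 2 next, and deletion 1 and control 1 lowest. The highest library stood above the lowest by 11.8-fold for Bpifb9b, 10.4-fold for Bpifb9a and 9.28-fold for Bpifb5. Of the 14018 genes with a mean of at least 100 normalized counts, 29, 32 and 37 had a larger SD of log2 values than Bpifb9b (1.34), Bpifb9a (1.28) and Bpifb5 (1.20).

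**Figure D3:**
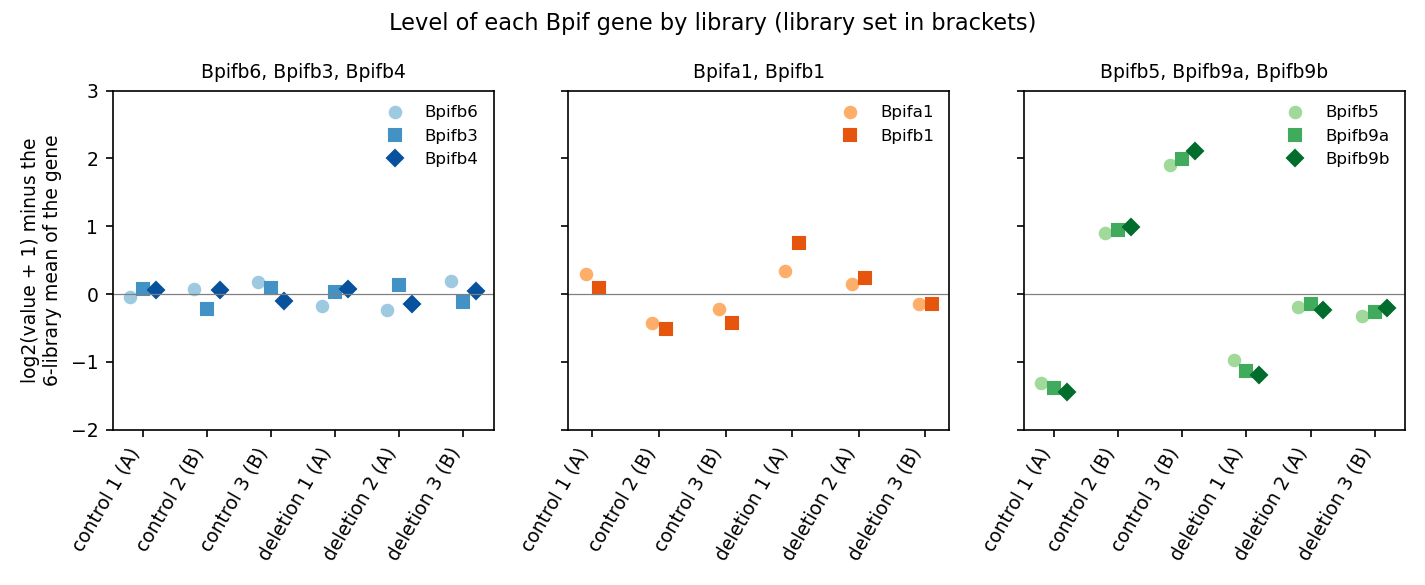
Points give log2(value + 1) minus the mean of the gene over the 6 libraries, by library, with the library set in brackets. Bpifb6, Bpifb3 and Bpifb4 lie at most 0.23 below or 0.19 above their means, while Bpifb5, Bpifb9a and Bpifb9b run from 1.45 below to 2.11 above and keep close to each other in every library.

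How closely a pair of genes moved together was measured by the SD of the log2 of their ratio over the 6 libraries, which is 0 for a constant ratio. The ratio of Bpifb9b to Bpifb9a was 3.33, 3.57 and 3.79 in control mice and 3.36, 3.28 and 3.62 in the deletion libraries, a log2 SD of 0.08 where counting error alone gives 0.02. The log2 SD was 0.10 for Bpifb5 with Bpifb9a, where counting error gives 0.09, and 0.17 for Bpifb5 with Bpifb9b. Among the 14017 other genes compared, the 2 genes closest to each of these 3 were the other two of the triplet. Outside the cluster, 2310003L06Rik on chromosome 5 was next, at 0.33 from Bpifb5, 0.40 from Bpifb9a and 0.47 from Bpifb9b. It had 108, 308 and 720 normalized counts in control mice and 149, 243 and 199 in the deletion libraries. Fos, an immediate early transcription factor on chromosome 12, followed at 0.57, 0.64 and 0.72. These values describe 6 libraries that differ in set and depth, and carry no test. Because the libraries part into sets, no pooled correlation is given.

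**Figure D4:**
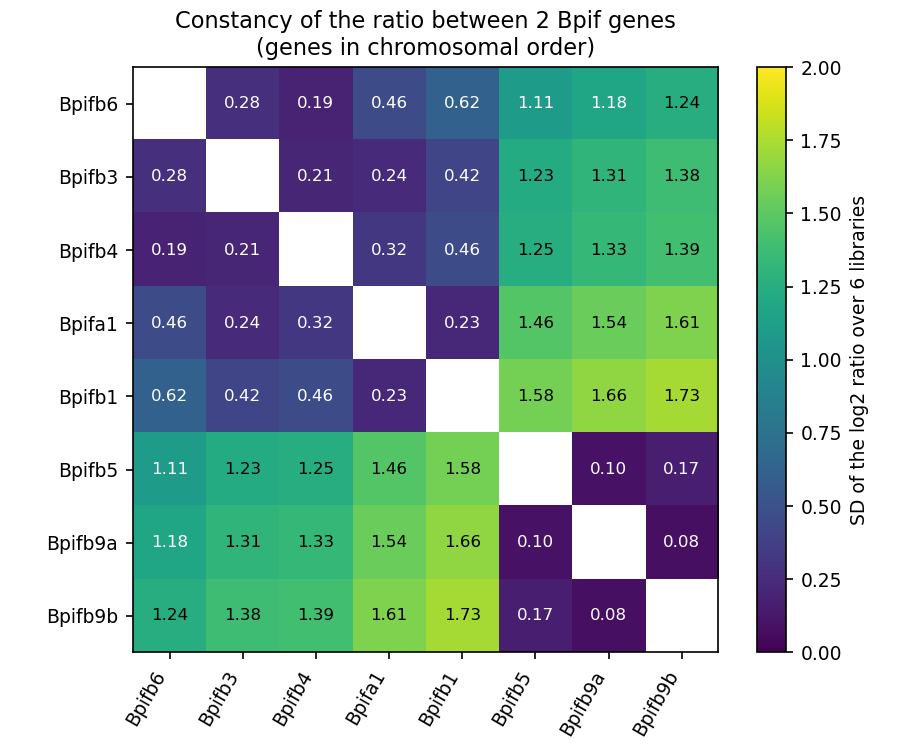
The grid shows the SD of the log2 ratio of each pair of BPI fold genes over the 6 libraries, in the order of the genes along the chromosome. The block of Bpifb5, Bpifb9a and Bpifb9b holds values of 0.08 to 0.17, and pairs that join it to the other 5 genes hold 1.11 to 1.73.

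Bpifb9a and Bpifb9b are near-identical copies, so the split of reads between them is uncertain. Their transcripts of 2065 and 2067 bases were identical at 2051 of 2065 aligned bases (99.3%), and 71.4% of the stretches of 50 bases in one were also in the other. How reads that match both copies were counted is not given in the sources used here, and the level of each copy and their near-constant ratio therefore rest on an unstated rule. None of the 27 other pairs of the 8 genes shared an exact stretch of 50 bases, comparing 1 transcript per gene. The stretches before the starts of the 3 genes that moved together, and of Bpifa1 as the most abundant gene, which did not move with them, are shown from RefSeq on GRCm38.p6. They cover the 250 bases before the RefSeq start (which differs from the GENCODE start for Bpifb9a and Bpifb9b), on the plus strand, at chr2:154223492-154223741 for Bpifb5, chr2:154257629-154257878 for Bpifb9a, chr2:154306994-154307243 for Bpifb9b and chr2:154142630-154142879 for Bpifa1. Capitals mark matches, on either strand, to the TATA box letters TATAAA, to the CCAAT box letters CCAAT and to the steroid receptor half-site letters AGAACA.
Bpifb5: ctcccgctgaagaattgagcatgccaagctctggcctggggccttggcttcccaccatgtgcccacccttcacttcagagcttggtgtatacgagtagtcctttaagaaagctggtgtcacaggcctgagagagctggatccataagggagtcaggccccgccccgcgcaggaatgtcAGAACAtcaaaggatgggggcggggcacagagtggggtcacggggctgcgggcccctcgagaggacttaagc
Bpifb9a: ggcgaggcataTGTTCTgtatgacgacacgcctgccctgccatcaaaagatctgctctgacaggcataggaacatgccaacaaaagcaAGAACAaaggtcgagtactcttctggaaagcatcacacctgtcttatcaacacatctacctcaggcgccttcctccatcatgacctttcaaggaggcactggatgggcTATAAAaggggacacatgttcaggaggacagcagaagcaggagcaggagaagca
Bpifb9b: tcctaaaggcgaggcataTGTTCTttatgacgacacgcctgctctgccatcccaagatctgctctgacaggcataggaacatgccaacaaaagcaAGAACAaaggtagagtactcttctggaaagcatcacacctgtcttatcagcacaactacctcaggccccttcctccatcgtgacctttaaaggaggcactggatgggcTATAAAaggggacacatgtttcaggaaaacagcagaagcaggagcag
Bpifa1: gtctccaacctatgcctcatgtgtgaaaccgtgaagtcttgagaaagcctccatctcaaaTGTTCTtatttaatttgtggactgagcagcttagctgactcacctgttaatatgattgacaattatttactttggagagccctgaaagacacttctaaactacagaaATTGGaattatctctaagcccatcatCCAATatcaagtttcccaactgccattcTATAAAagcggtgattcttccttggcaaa

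The windows of Bpifb9a and Bpifb9b were identical at 230 of 242 aligned bases. Both held TATAAA, at 54 to 49 bases before the RefSeq start in Bpifb9a and at 47 to 42 in Bpifb9b. The GENCODE starts, 154257854 for Bpifb9a and 154307227 for Bpifb9b, lie inside these windows, so TATAAA is closer to them. The spacing therefore depends on the annotation. Both windows held AGAACA once on each strand. Bpifb5 held AGAACA once, at 72 to 67 bases before the start, and neither TATAAA nor CCAAT. Bpifa1 held TATAAA at 29 to 24 bases before the start, CCAAT once on each strand and AGAACA once. TGTTTAC, a forkhead motif also searched on both strands, was in none of the 4 windows. Of all 32851 RefSeq windows of this length, 12.4% held the TATA box letters, 33.8% the CCAAT box, 16.1% the half-site and 3.17% the forkhead letters, and no matches of different motifs overlapped in the windows of the 8 genes. A match is a description of letters and not of a bound site.

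Bpifa1 and Bpifb1, the members best known from the respiratory tract, parted by library set. Bpifb6 and Bpifb9b parted too, in the other direction, Bpifb9b with at most 15606 in set A and at least 15962 in set B. The share of all genes that part by set was not counted, so parting is not shown to be particular to any gene named here. Bpifa1 had 337631, 202927 and 236045 normalized counts in control mice and 347412, 304351 and 247096 in the deletion libraries. Its 3 libraries of set A, at 304351 to 347412, lay above the 3 of set B, at 202927 to 247096. Bpifb1 had 1453, 959 and 1018 in control mice and 2300, 1610 and 1229 in the deletion libraries, and again every library of set A was above every library of set B. The log2 SD of their ratio was 0.23, with Bpifa1 as the 285th closest of 14017 genes to Bpifb1 and Bpifb1 as the 2822nd closest to Bpifa1. The genes closest to Bpifa1 were Cryab, a small heat shock protein, and Ankrd65 (0.04 and 0.05), and those closest to Bpifb1 were Ccdc180 and Gm626 (both 0.09). Set B over set A, the log2 difference was -0.53 for Bpifa1 and -0.72 for Bpifb1, against 1.64, 1.78 and 1.92 for Bpifb5, Bpifb9a and Bpifb9b.

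Bpifb6, Bpifb3 and Bpifb4, which lie side by side, varied least of the 8 genes across the 6 mice. Bpifb3 had 164002, 133635 and 166156 normalized counts in control mice and 159588, 171182 and 143362 in the deletion libraries. Bpifb6 had 59875, 65102 and 69678 in control mice and 54735, 52481 and 70176 in the deletion libraries. Bpifb4 had 50498, 50480 and 44892 in control mice and 50717, 43744 and 50040 in the deletion libraries. The groups overlapped for each of the 3 genes. The SDs of log2 values were 0.14 for Bpifb3 and 0.10 for Bpifb4, where the median gene had 0.12. Bpifb6 had 0.18, more than 73.7% of the genes compared. They did not share a profile: the log2 SD of the ratio was 0.28 for Bpifb6 with Bpifb3, 0.21 for Bpifb3 with Bpifb4 and 0.19 for Bpifb6 with Bpifb4, larger than the variation of the single genes. Bpifb6 was lower in each library of set A than in each library of set B, the reverse of Bpifa1.

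The comparison of deletion with control mice asks whether levels change when the eC element is gone. None of the 8 genes passed the test across all genes (limma, adjusted p between 0.982 and 0.993), where 15 of 20368 tested genes passed, or 0.0736%. At an unadjusted p under 0.05, 1 of the 8 genes passed, Bpifb1, where 549 of all tested genes did (2.70%), and 0 of the 8 were called by edgeR (0.0752% of all genes) or DESeq2 (0.162%) on the recovered reads. With the set in the model 0 of the 8 passed (0.177% of all genes), and likewise without the filter (0.0447%) and after scaling to the column sum (0.0687%). Leaving out 1 library, 0 of the 8 passed beside 0.0442%, 0.0295% and 0.0491% of all genes without controls 1, 2 and 3, and beside 0.0540%, 0.0295% and 0.118% without deletion libraries 1, 2 and 3. The median log2 fold change of the 8 genes, deletion over control, was -0.08, with 3 above and 5 below 0, and that of all tested genes was 0.01.

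Bpifb1 had the largest change in relation to its error. Its log2 fold change was 0.56 ± 0.23 (SE; 95% interval 0.02 to 1.10; unadjusted p = 0.044, adjusted p = 0.982, limma). Its deletion libraries were above the control of the same set both in set A (2300 and 1610 against 1453) and in set B (1229 against 959 and 1018), though the groups overlapped when the sets were pooled. With the set added to the model the value was 0.36 ± 0.12, still short of the threshold (adjusted p = 1.00, limma). Some markers of motile ciliated cells moved with these values. Of the 9 markers, 6 had a log2 fold change above 0 and 3 below. They summed to 32603, 27690 and 26154 normalized counts in control mice and 38423, 35701 and 31702 in the deletion libraries, with the deletion libraries above the controls within each set, as for Bpifb1. Dnah5, an axonemal dynein gene, supplied much of the difference. Without it the sums were 22368, 19772 and 19676 in control mice and 24743, 24212 and 22211 in the deletion libraries. Much of what remained lay in Dnah9, at 5906, 4940 and 3834 in control mice and 7984, 6908 and 5195 in the deletion libraries. Tekt1, Cfap126 and Dynlrb2 were the 3 markers below 0. None of the 9 markers passed the test, beside 0.0736% of all tested genes, and their part in the Bpifb1 values was not tested.

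Bpifb5, Bpifb9a and Bpifb9b had log2 fold changes of -0.99 ± 0.69, -1.04 ± 0.74 and -1.10 ± 0.78 (SE), with 95% intervals of -2.59 to 0.61, -2.74 to 0.66 and -2.89 to 0.69. The intervals hold large falls as well as no change. The direction turned with the library set. Within set A, where a single control stood against a pair of deletion libraries, the values were 0.73, 0.74 and 0.73 (adjusted p = 1.00, limma), and 0 of the 8 genes passed beside 0.00982% of all genes. Within set B, where a single deletion library stood against a pair of controls, they were -1.72, -1.73 and -1.76. The fit within set B put these 3 of the 8 genes past the threshold, beside 0.442% of all genes, at SEs of 0.23, 0.22 and 0.26, which borrow their spread from other genes. The controls of set B differed from each other by a log2 of 1.00, 1.04 and 1.12 for these genes, far more than those SEs, so no call is taken from this fit. In both of these fits the lone library is assumed to vary like the other group. With the set as a term, the values were -0.50 ± 0.49, -0.50 ± 0.50 and -0.51 ± 0.51 (SE). The size depended on single libraries and on the method. Without control 3 the values were -0.29, -0.30 and -0.32. Without control 1 they were -1.89, -1.99 and -2.09 (adjusted p = 0.246, 0.310 and 0.314, limma). On recovered reads of all 6 libraries they were -1.46, -1.52 and -1.63 with DESeq2, at SEs of 0.84, 0.88 and 0.80. With edgeR they were -1.47, -1.54 and -1.64.

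The remaining 4 genes lay closer to 0. The log2 fold change was 0.23 ± 0.21 for Bpifa1 (SE; 95% interval -0.25 to 0.71) and 0.06 ± 0.19 with the set as a term. It was 0.03 ± 0.12 for Bpifb3 (-0.25 to 0.32), -0.14 ± 0.12 for Bpifb6 (-0.43 to 0.14) and -0.01 ± 0.09 for Bpifb4 (-0.23 to 0.20). For these genes a miss of the threshold does not show equal levels, and the intervals bound the difference.

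**Figure D5:**
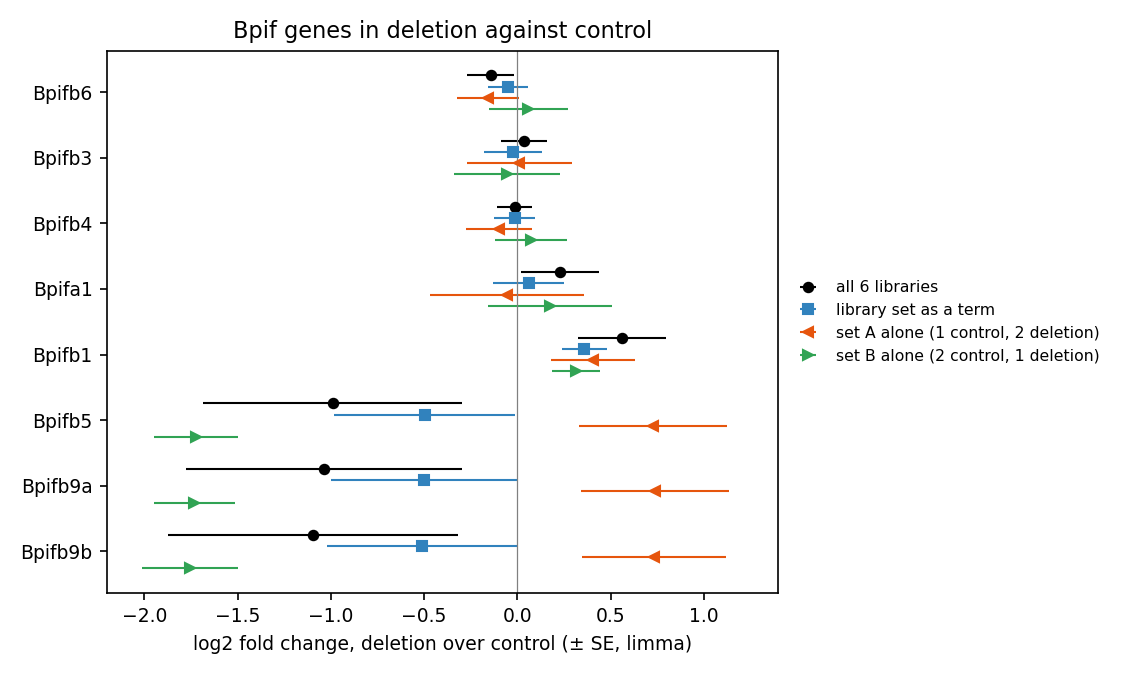
Points give the log2 fold change of each BPI fold gene, deletion over control, from limma with the group alone, with the library set added, and within each set, and bars give the standard error. Bpifb5, Bpifb9a and Bpifb9b lie near 0.73 within set A and between -1.72 and -1.76 within set B, while Bpifb1 is above 0 in every fit shown.

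Other BPI fold relatives did not reach the levels of the abundant members, though Lbp and Pltp had normalized counts like those of Bpifb1 and above those of Bpifb5. Of 9 further genes of the family in the table, 4 passed the filter and 0 of those passed the test, beside 0.0736% of all tested genes. The median log2 fold change of the 4 was 0.18 (0.07 with the set as a term). Lbp, the lipopolysaccharide-binding protein, had 1222 ± 286 normalized counts in control mice and 1462 ± 308 in the deletion group (SD, n = 3 each). Pltp, the phospholipid transfer protein of plasma, had 1263 ± 297 and 1453 ± 333. Both were higher in every library of set A than in every library of set B, as Bpifa1 was. Bpifa2, a parotid secretory protein whose gene lies in the gap between Bpifb4 and Bpifa1, had 35.7 ± 14.3 and 38.4 ± 8.73, and Bpifc 16.2 ± 7.23 and 11.2 ± 8.16. Bpi, Bpifa3, Bpifa5, Bpifa6 and Bpifb2 stayed below the filter, and Bpi, Bpifa3 and Bpifa5 had no read in at least 1 library.

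The neighbouring genes Cdk5rap1, Cbfa2t2, Mapre1 and Dnmt3b did not share the swings of Bpifb5, Bpifb9a and Bpifb9b. On the far side of Bpifb9b, Cdk5rap1 and Cbfa2t2 had SDs of log2 values of 0.22 and 0.10. On the near side of Bpifb6, Mapre1 and Dnmt3b had 0.02 and 0.16. Efcab8 had 1.95, at a mean of 11.7 normalized counts, where few reads stand behind each value. Gm14197, a processed pseudogene on the minus strand between Bpifb9a and Bpifb9b, had 5.17, 10.33 and 17.4 normalized counts in control mice and 3.73, 5.52 and 9.66 in the deletion libraries. It was too low to be tested, and few reads stand behind its order of libraries. Control 3 and control 2 were highest, as for the genes beside it, but deletion 3, also of set B, was close to control 2.

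Marker lists for the cells and glands of the nose, and for blood cells, were set beside these profiles. Over 12 lists, the further family genes among them, 80 genes were tested and 0 passed, beside 0.0736% of all tested genes (limma). With the set in the model 2 passed, both of them haemoglobin genes on the erythroid list, beside 0.177% of all tested genes. Of 18 markers of respiratory secretory cells, 15 were tested. They summed to 304878 to 372733 normalized counts in set A and 232553 to 279760 in set B, apart in the same direction as Bpifa1, and Scgb1a1, Scgb3a2 and Tff3 were at 0 in at least 1 library. Scgb1c1 was the most abundant of them, at 101004 ± 19056 in control mice and 106843 ± 8938 in the deletion group. The 3 basal cell markers summed to 3900 to 5133 in set A and 3197 to 3643 in set B, also as Bpifa1. The 9 motile ciliated markers parted in this direction too, at 32603 to 38423 in set A and 26154 to 31702 in set B. The 9 markers of olfactory sensory neurons ran the other way, at 376020 to 438272 in set A and 462858 to 508274 in set B. So did the 7 vomeronasal markers measured, at 20.9 to 55.2 and 86.1 to 109. Parting by set was thus not limited to respiratory cell types. The part of these cell types in the profiles of Bpifa1 and Bpifb1 was not tested.

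Of 6 neutrophil markers in the table, 5 were tested. They summed to 470, 714 and 1229 normalized counts in control mice and 453, 714 and 899 in the deletion libraries, with Elane at 0 in at least 1 library. Control 3 was the highest as for Bpifb9b, but deletion 3 was next, where for Bpifb9b control 2 was. The 6 markers of serous and mucous glands, led by Dcpp3, summed to 1001, 1096 and 1313 in control mice and 875, 910 and 981 in the deletion libraries. Smgc was at 0 in at least 1 library. For these sums control 3 was highest and control 2 next, as for Bpifb9b, over a far smaller range than the 11.8-fold of Bpifb9b. Control 1 was above every deletion library for these sums, where for Bpifb9b it was the lowest library. Of the 7 vomeronasal neuron markers measured, only 1 passed the filter. They summed to 44.4, 86.1 and 109 in control mice and 20.9, 55.2 and 88.1 in the deletion libraries, with Fpr-rs3, Fpr-rs4, Fpr-rs7 and Vmn2r116 at 0 in at least 1 library. Whether these cells had a part in the values of Bpifb5, Bpifb9a and Bpifb9b was not tested.

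Odorant binding proteins and lipocalins, other secreted products of the nose, did not follow the profile of Bpifb9b. The 9 odorant binding proteins and lipocalins in the table summed to 961419, 305505 and 577119 normalized counts in control mice and 600016, 828459 and 610304 in the deletion libraries, with control 1 highest where Bpifb9b was lowest. Obp1a, the most abundant of them by mean, ran from 99496 to 268891, and its sets overlapped. Obp2a parted by set as Bpifa1 did, at 129443 to 217828 in set A and 48169 to 107176 in set B. The 4 markers of Bowman's gland, the gland of the olfactory epithelium, stayed between 156446 and 174593, and the 11 sustentacular markers between 627720 and 735464. The 5 erythroid markers summed to 2176 to 2844 in control mice and 1209 to 1819 in the deletion libraries. No member passed the test with the group alone (limma), beside 0.0736% of all tested genes. With the set in the model, the beta-globin genes Hbb-bs and Hbb-bt passed as lower in the deletion group, at log2 fold changes of -0.92 ± 0.11 and -3.31 ± 0.34 (SE; adjusted p = 0.00994 and 0.00391, limma). Hba-a1, on the same list, had -0.54 ± 0.14 in that fit and did not pass (SE, adjusted p = 0.640, limma). These 3 genes did not shift by a like amount. What lay behind their values, the amount of erythroid cells or anything else, was not tested.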

How the data were processed

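Per the labels' protocols, libraries were ribodepleted and stranded. The submitters' processing notes name STAR 2.6.0, DESeq2 and GRCm38.p6; how reads were counted, with which annotation and strand option, is not given in the sources used here. The authors deposited a normalized value per gene and library, a signal that is a count divided by a size factor. The authors' log2 fold change, test score and p-values were not used.

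All values above 0 (100%) were whole multiples of 1 read within 0.001, so reads were recovered. No library was a copy of another. Because the unit is a normalized count, limma 3.58.1 (trend, R 4.3.3) on log2(value + 1) was used, over genes that reached 10 in 3 or more libraries, with Benjamini-Hochberg adjustment at 0.05. Alternatives were edgeR 4.0.16, which called 15 of 19953 genes, and DESeq2 1.42.0, which called 40 of 24651, both on recovered reads; other filters, pseudocounts, scalings and denominators; the library set; a replicate block; and leaving out each library. The limma fit was run on simulated data that held no library sets, so that run does not cover their effect. Fold changes are on the log2(value + 1) scale and understate low genes. Levels per kb use the longest protein-coding transcript of GENCODE vM21, in which 39985 of 40273 identifiers were found. The members, lists and alternatives were chosen with earlier results of these data known. Named genes were the 8 genes, Olfr571, every measured relative, the 2 most abundant or any called gene of each other list, and for each of the 8 the 2 other genes with a mean of at least 100 and the smallest SD of log2 ratio; flanking genes were added for their place, and 1 of them is not reported here.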

Additional observations from a re-analysis of the deposited data

How the results depend on the processing

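The number of genes called was 15, and 40 with DESeq2, 36 with the library set added to the model, 46 with the replicate block, 2 within set A, 90 within set B and 6 to 24 when 1 library was left out (highest without deletion 3, lowest without control 2 or deletion 2). Of the 8 BPI fold genes 0 were called in each of these fits except within set B, where 3 were; the cause was not tested. Same-numbered libraries varied together for numbers 1 and 3 (correlations 0.65 and 0.66) but not for 2 (-0.34). Control 2 correlated best with deletion 3, so the numbers were not taken to pair the mice. Under the replicate block 0 of the 8 genes were called, beside 0.226% of all tested genes. Bpifb1 came nearest there, at 0.56 ± 0.09 (SE, adjusted p = 0.079, limma).

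Of 120 alternative log2 fold changes of the 8 genes, 104 kept direction and side, 3 passed (all within set B, with 1 deletion library, from which no call is taken) and 13 turned sign, for causes not tested. Bpifb5, Bpifb9a and Bpifb9b turned to 0.73, 0.74 and 0.73 and Bpifa1 to -0.054 within set A. Bpifb3 turned to -0.022 with the set as a term and -0.056 within set B, where Bpifb6 turned to 0.059 and Bpifb4 to 0.072. Leaving out 1 library, Bpifb3 ran from -0.067 to 0.10 (-0.067 without control 2, -0.025 without deletion 2) and Bpifb4 from -0.071 to 0.053 (0.014 without control 1 or control 2, 0.053 without deletion 2). Over protein-coding genes alone, the summed share was 1.70% in control mice and 1.70% in the deletion group. With set means removed, the log2 SD of the ratio was 0.034 for Bpifb9a with Bpifb9b, 0.073 for Bpifb5 with Bpifb9b, 0.13 for Bpifb6 with Bpifb3 and 0.11 for Bpifb6 with Bpifb4. Leaving out 1 library, it was 0.065 to 0.11 for Bpifb5 with Bpifb9a and 0.13 to 0.26 for Bpifa1 with Bpifb1, lowest without deletion 1 in both. The order of levels per kb held without any 1 library. At 115 to 1070 normalized counts, counting error limits Bpifb5 most.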

Other observations

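The 3 genes that varied least, Bpifb6, Bpifb3 and Bpifb4, had their closest matches far from the cluster, by the SD of the log2 ratio over the 6 libraries. Bpifb6 was closest to Zfp28, a zinc finger gene on chromosome 7 (0.03), and to Pparg, a lipid-sensing nuclear receptor on chromosome 6 (0.04). Pparg had 492, 516 and 548 normalized counts in control mice and 455, 426 and 587 in the deletion libraries, highest in deletion 3 as Bpifb6 was. Bpifb3 was closest to Rps9, a ribosomal protein gene on chromosome 7, and to Bola3 on chromosome 6 (both 0.03). Bpifb4 was closest to Pin4 on the X chromosome (0.02) and Tmod1, a tropomodulin gene on chromosome 4 (0.03). Among 14017 genes compared with each over 6 libraries, small values arise for many genes of little variation, and these pairs are given as values.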
